A study of Homo sapiens with 7 samples.

Results

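Long H3K36me3 domains in T-47D cells were examined in peak lists from chromatin immunoprecipitation sequencing (ChIP-seq). T-47D is an estrogen receptor-positive, luminal breast cancer line. A domain was made by joining H3K36me3 peaks on chromosomes 1 to 22 and X that lay within 1 kb of each other, and long domains were chosen by that joined length alone, at 20000 bp or more. This gave 562 long domains of 41909 merged regions (1.34%), which held 16.8 Mb, or 15.6% of all H3K36me3 sequence. They were set beside 3283 domains of 5 to 10 kb, which held 22.9 Mb. Other libraries of the same untreated line, grown in serum, gave H3K27ac, H3K4me2, H3K27me3, H3K9me3 and the histone variant H2A.Z, with 1 library for each antibody. An input library was also listed and was not analysed here. The series relates histone modification to the control of gene expression, and the question asked here is what surrounds and what fills the longest H3K36me3 stretches.

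As background, H3K36me3 is laid down by SETD2, a methyltransferase that travels with elongating RNA polymerase II, so the mark builds up over the bodies of transcribed genes. H3K27ac and H3K4me2 sit at active promoters and enhancers. H3K27me3 is the product of Polycomb repressive complex 2, an enzyme that H3K36me3 on the same histone tail inhibits. H3K9me3 is known from heterochromatin, and H2A.Z from promoters and enhancers. The lists labelled H3K9me3 and H2A.Z did not place as these backgrounds would have it: the first lay beside the active marks and the second was scarce there, so both are named by their labels throughout.

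The files hold positions only, with no height or p-value, and read depth is unknown. Each mark has 1 library, so no difference below carries a replicate check or a p-value. The intervals (95%) are Wilson intervals for shares, Newcombe intervals for differences of shares and exact Poisson intervals for densities. Those for ratios of densities use a normal approximation on the log scale. All intervals cover counting error only and treat the domains, ends or peaks counted as independent. Peaks cluster, with the 481 H3K27ac peaks inside long domains lying in 242 of them. Opposite ends of a domain can also be linked. Intervals for densities and for shares of ends may therefore be too narrow. Where no peak is listed, weaker enrichment below the calling threshold cannot be told apart from none. No correction for copy number was made here, and its part in any count was not tested.

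Long domains ranged from 20031 to 80012 bp with a median of 26.3 kb and quartiles of 22309 and 34021 bp. There were 251 from 20 to 25 kb, 112 from 25 to 30 kb, 120 from 30 to 40 kb and 79 of 40 kb or more, of which 5 reached 70 kb. These lengths chose the domains and are given as a description. Most were nearly unbroken as called. Of the 562, 229 (40.7%) were a single H3K36me3 peak, and the gaps bridged between joined peaks made up 2.40% of their sequence. In domains of 5 to 10 kb, 46.9% were a single peak and bridged gaps made up 7.55%.

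The number of long domains depended on the joining distance, since joining within 3 kb gave 1299. Just inside the threshold were 3 domains. Those at 34057518 to 34077548 of chromosome 20 and at 65385209 to 65405239 of chromosome 11 measured 20031 bp each, and that at 6071526 to 6091562 of chromosome 7 measured 20037 bp. Just outside it, the region at 16749804 to 16769746 of chromosome 19 measured 19943 bp, that at 155916450 to 155936373 of chromosome 1 measured 19924 bp, and that at 116615909 to 116635826 of chromosome 11 measured 19918 bp. These regions all had H3K27ac within 10 kb of at least 1 end. The threshold therefore cuts through a continuous range of lengths.

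The longest domain lay on chromosome 17 (hg19, 5241474 to 5321485, 80.0 kb) and was joined from 2 peaks. At its right end a 2.12 kb H3K27ac peak began 0.172 kb outside the edge and an H3K4me2 peak touched the edge. Its left end had neither mark within 10 kb. Inside it were 4 H3K27ac peaks and 1 H3K4me2 peak. It is thus marked at 1 end by both active marks.

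The next longest, on chromosome 11 (47794066 to 47868831, 74.8 kb), was a single peak. Its right end met a 2.94 kb H3K4me2 peak that touched the edge and a 1.52 kb H3K27ac peak 0.157 kb away. Its left end had H3K4me2 alone, with 2 peaks. The domain on chromosome 14 (102447907 to 102522473, 74.6 kb) had both marks at both ends and 7 H3K27ac peaks inside. The other domain of chromosome 11 among the longest (93398403 to 93472391, 74.0 kb) was a single peak with both marks at both ends. It had 1 H3K27ac peak inside, and no other H3K36me3 region lay within 483.9 kb to its left.

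The domain on chromosome 9 (134305559 to 134376687, 71.1 kb) had H3K27ac at both ends and H3K4me2 at the right end only. That on chromosome 1 (12301670 to 12370102, 68.4 kb) was joined from 5 peaks and had both marks at the left end only, the nearest H3K27ac peak being 9.25 kb away. The one on chromosome 17 (37620689 to 37688610, 67.9 kb) was a single peak with both marks at both ends and 3 peaks of each mark inside. A further domain on chromosome 9 (131329212 to 131396640, 67.4 kb) had a 3.42 kb H3K27ac peak and a 2.90 kb H3K4me2 peak at its right end, and H3K4me2 alone at its left. The domains on chromosome 15 (52481851 to 52548561, 66.7 kb) and chromosome 12 (120562317 to 120628563, 66.2 kb) had H3K4me2 at the left end only. The chromosome 15 domain had no H3K27ac at either end, and the chromosome 12 domain had H3K27ac at the right end.

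Across these 10, H3K27ac was at both ends of 4, at 1 end of 5 and at neither end of 1. H3K4me2 was at both ends of 5 and at 1 end of 5. All 10 held H3K27ac inside, 3 held H3K4me2 inside, and none held or neighboured a peak of H3K27me3 or of the list labelled H2A.Z within 10 kb. Of all 562 long domains, 43.1% held H3K27ac and 16.5% held H3K4me2, shares that are not adjusted for length. H3K27me3 was at neither end of 96.8% of the 562, and the list labelled H2A.Z at neither end of 98.6%.

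**Figure D1:**
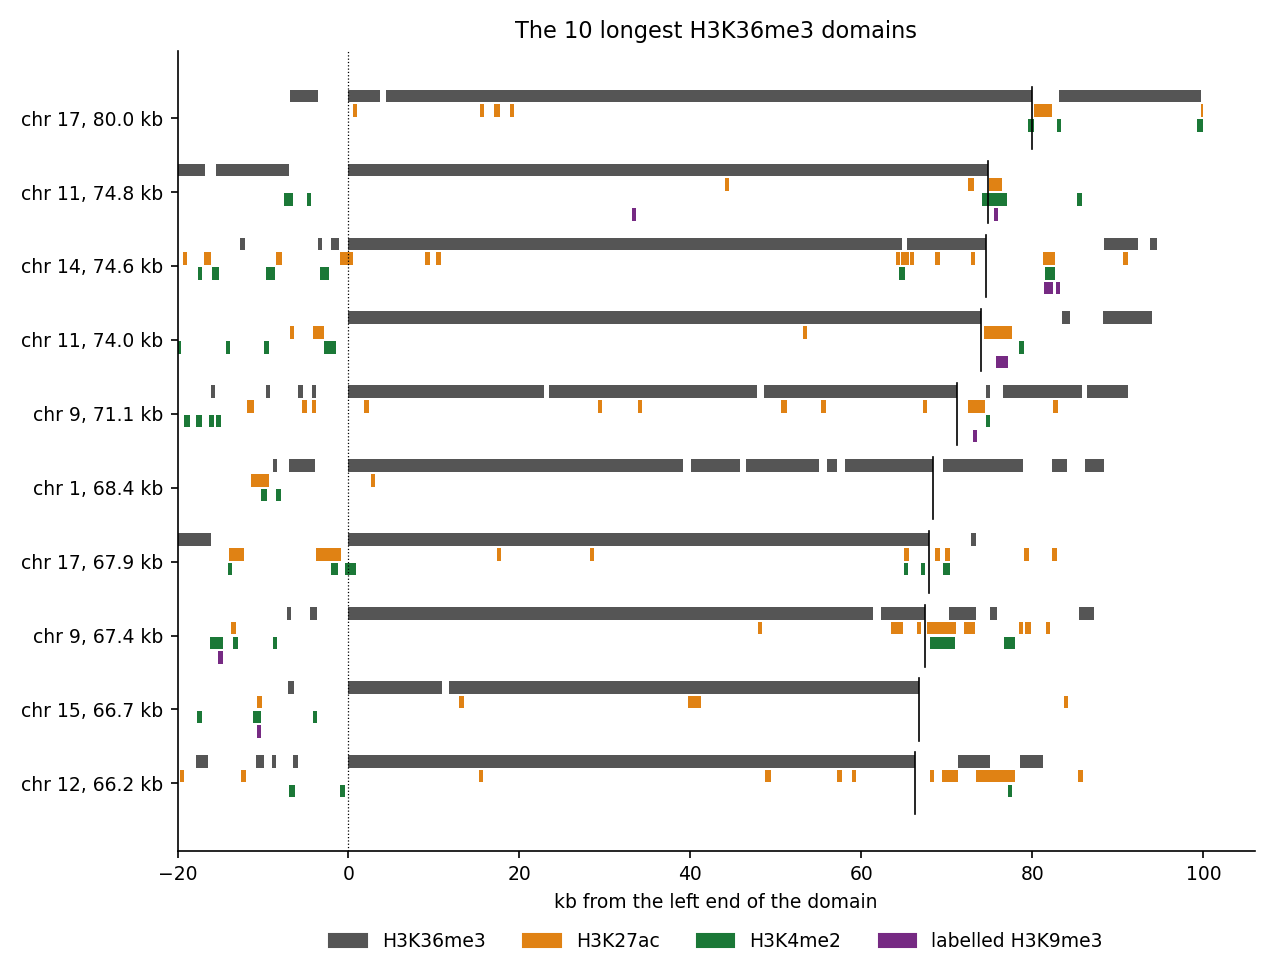
Peaks in and around the 10 longest H3K36me3 domains, placed by distance in kb from the left end (x axis), 1 domain per row with its chromosome and length. Coloured bars are peaks of each list, drawn at least 0.25 kb wide, the dotted line is the left end and the short black lines are right ends. H3K27ac peaks lie inside all 10 domains, and H3K4me2 lies inside 3, beside 43.1% and 16.5% of all long domains.

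Long domains were unevenly spread over chromosomes. They were densest on chromosome 22, with 23 domains or 0.669 per Mb (interval 0.424 to 1.004), and chromosome 17, with 45 or 0.555 per Mb (0.405 to 0.742). They were sparsest on chromosome 18, with 3 or 0.0385 per Mb (0.00794 to 0.113), and chromosome 13, with 4 or 0.0418 per Mb (0.0114 to 0.107). The mean over all chromosomes was 0.191 per Mb of the span from the first to the last peak of any list. The intervals of the densest pair did not reach those of the sparsest pair. Both pairs were picked by these same densities, for which the intervals make no allowance.

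This order was close to that of the 5 to 10 kb domains, with exceptions. Over the 23 chromosomes the 2 densities had a Pearson r of 0.779 and a Spearman rho of 0.850, given as a description, since all chromosomes come from 1 library. Chromosome 19 had the most 5 to 10 kb domains per Mb, 4.25, but came after chromosomes 22 and 17 for long domains, with 0.458 per Mb. Of its domains of 5 kb or more, 6.96% were long, against 10.5% over all chromosomes. Chromosome 21 stood at the other side, with 20% (13 long domains), and chromosomes 18 and 13 were at 4.23% and 5.19%.

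**Figure D2:**
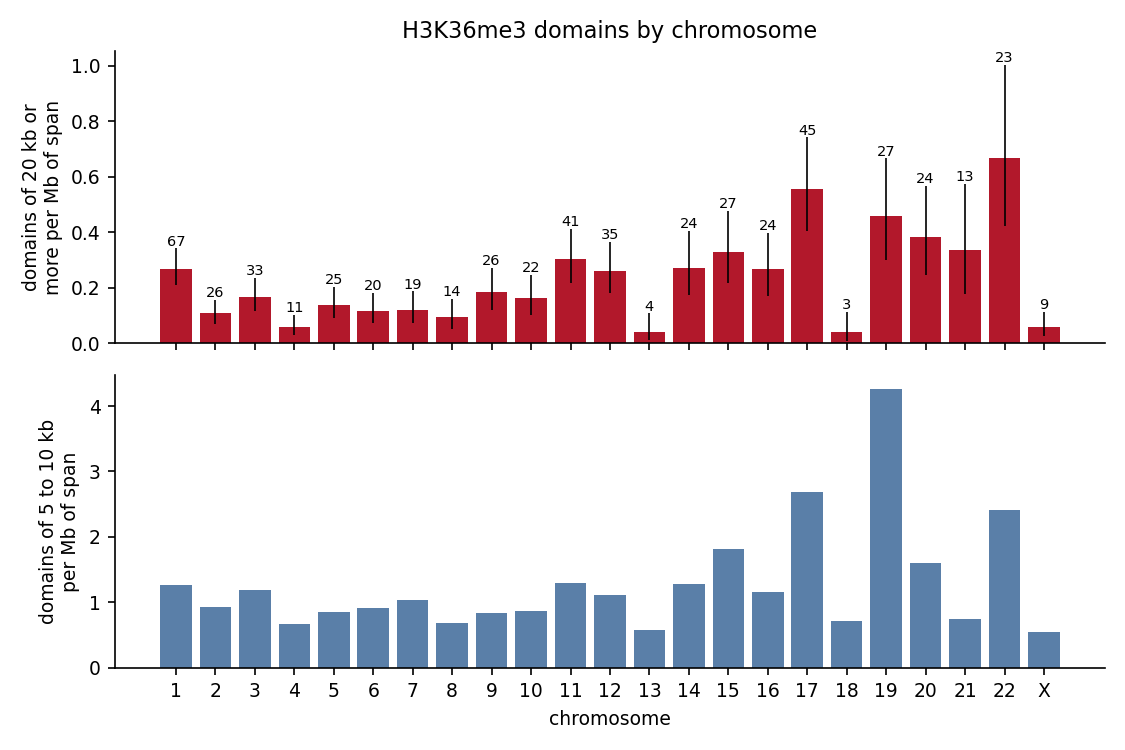
Number of H3K36me3 domains per Mb of chromosome span (y axes) by chromosome (x axis), with long domains above and domains of 5 to 10 kb below. Error bars are exact 95% Poisson intervals, and the numbers over the bars count long domains. Chromosome 22 leads for long domains at 0.669 per Mb and chromosome 19 for the shorter class at 4.25.

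Most long domains had another H3K36me3 region nearby, though fewer of their ends did than in the shorter class. Another merged H3K36me3 region of any length lay within 10 kb of 61.1% of their ends (687 of 1124, interval 58.2 to 63.9), against 71.0% of the ends of 5 to 10 kb domains (69.8 to 72.0). The median distance to the next region was 5.70 kb for long domains and 4.07 kb for the shorter class. A region of 5 kb or more lay within 10 kb of 21.1% of long-domain ends (18.8 to 23.6) and 20.8% of the shorter class (19.8 to 21.8), so large neighbours were about as frequent. Long domains next to each other on a chromosome were a median of 1.49 Mb apart. Of 539 such pairs, 15 were within 10 kb and 50 within 50 kb.

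The closest pair lay on chromosome 21 (40623429 to 40651837 and 40652848 to 40683973), 1010 bp apart, just over the joining distance. The next lay on chromosome 20 (62613845 to 62643161 and 62644380 to 62667869), 1218 bp apart. Such pairs would each be 1 domain under a slightly wider joining distance.

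H3K27ac flanked most long domains, and 1 marked end was the most frequent pattern. A domain counted as marked at an end when a peak shared at least 1 bp with the 10 kb outside that end. H3K27ac was at both ends of 152 long domains (27.05%, interval 23.5 to 30.9), at 1 end of 271 (48.2%, 44.1 to 52.3) and at neither end of 139 (24.7%, 21.3 to 28.5). In domains of 5 to 10 kb the shares were 14.6% (13.4 to 15.8), 36.5% (34.9 to 38.2) and 48.9% (47.2 to 50.6). Over all 41909 merged regions, 10.8% had it at both ends and 27.9% at 1 end.

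The share with H3K27ac at neither end was 24.2 percentage points lower in long domains than in those of 5 to 10 kb (-24.2, interval -28.0 to -20.1). It was lower on all 20 chromosomes with at least 10 long domains. The share with both ends marked was 12.5 points higher (8.73 to 16.4), and higher on 16 of the 20.

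H3K4me2 gave nearly the same picture. It was at both ends of 154 long domains (27.4%, 23.9 to 31.2), at 1 end of 268 (47.7%, 43.6 to 51.8) and at neither end of 140 (24.9%, 21.5 to 28.6). The shares in domains of 5 to 10 kb were 16.4% (15.2 to 17.8), 40.3% (38.6 to 41.99) and 43.3% (41.6 to 45.0). Over all merged regions they were 13.2% at both ends and 34.5% at 1 end. Both ends were marked 11.0 points more often in long domains than in the shorter class (7.19 to 14.98), and more often on 18 of 20 chromosomes. The both-end shares depend on the window: 5 kb windows gave 15.3% for H3K27ac and 14.9% for H3K4me2 in long domains, and 20 kb windows 41.5% and 48.8%. Windows stopped at the next H3K36me3 peak gave 15.7% and 18.1%, and peaks wider than their list's median 14.6% and 16.2%, with long domains still ahead in each.

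**Figure D3:**
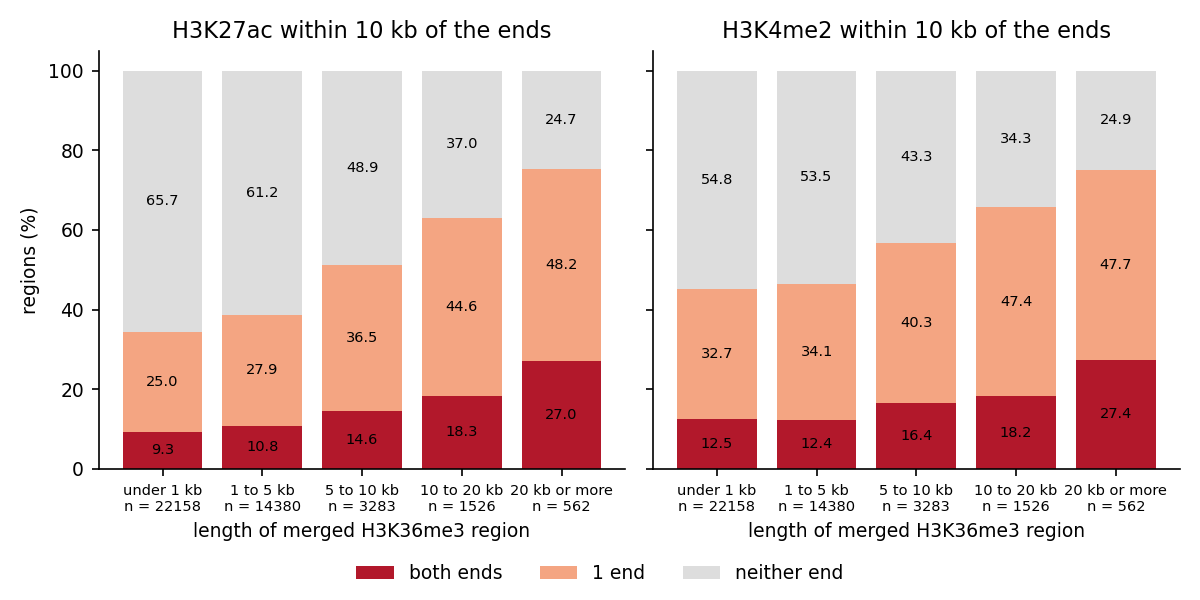
Share of merged H3K36me3 regions (y axis, %) with H3K27ac (left) and H3K4me2 (right) within 10 kb of both ends, 1 end or neither end, by length of the region (x axis, with the number of regions). The share with neither end marked goes down with length for both marks, to 24.7% and 24.9% in long domains.

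The shares with marks moved with length inside the long class too, though less evenly. H3K27ac was at neither end of 28.3% of domains from 20 to 25 kb (23.1 to 34.2), 28.6% from 25 to 30 kb, 19.2% from 30 to 40 kb and 16.5% of those of 40 kb or more (9.88 to 26.1). The intervals of the shortest and longest of these classes overlap. The share with H3K27ac at both ends was 23.1, 32.1, 27.5 and 31.6% in the same order, with no steady trend.

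Whether a neighbouring H3K36me3 region was near went with these shares. Of long-domain ends with another region within 10 kb, 47.2% had H3K27ac (43.5 to 50.9), against 27.7% of such ends in the 5 to 10 kb class (26.4 to 29.0). Of ends with none within 10 kb, 57.4% in long domains (52.8 to 62.0) and 45.4% in the shorter class (43.1 to 47.6) had it. Among domains free of any other region within 10 kb at either end, chosen after seeing the data, the lead of long domains was small. H3K27ac was at both ends of 26 of 99 such long domains (26.3%, 18.6 to 35.7) and of 75 of 319 shorter ones (23.5%, 19.2 to 28.5). H3K4me2 was at both ends of 30.3% of these long domains (22.1 to 39.95) and 32.6% of the shorter ones (27.7 to 37.9), which turns the direction. The differences were 2.75 points (-6.37 to 13.1) and -2.30 points (-12.1 to 8.53), so a lead in both-end marking is not shown for isolated domains. H3K27ac at neither end was still less frequent in isolated long domains, 14.1% against 24.8% (-10.6 points, -18.1 to -1.30). H3K4me2 was at neither end of 18.2% of isolated long domains and 20.1% of isolated shorter ones, and the interval of this difference spans 0 (-1.88 points, -9.81 to 7.74).

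Against 10 kb windows tiled over the chromosomes, long-domain ends were rich in H3K27ac, H3K4me2 and the list labelled H3K9me3, and poor in H3K27me3 and the list labelled H2A.Z. H3K27ac was in 51.2% of the 10 kb windows at long-domain ends, 32.8% at the ends of 5 to 10 kb domains and 8.66% of tiled windows. H3K4me2 was in 51.2, 36.6 and 17.6%. The list labelled H3K9me3 was in 22.3, 11.8 and 6.67%. H3K27me3, the Polycomb mark, was in 1.60, 1.02 and 12.4%, and the list labelled H2A.Z was in 0.801, 1.08 and 11.4%.

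The list labelled H3K9me3 followed the active marks at a lower level. It was at both ends of 27 long domains (4.80%, 3.32 to 6.90) and at 1 end of 197 (35.1%, 31.2 to 39.1), against 1.92% and 19.7% in the shorter class. Over all merged regions it was at both ends of 0.69% and at 1 end of 13.3%. The list labelled H2A.Z was at both ends of 1 long domain (0.178%) and at 1 end of 7 (1.25%, 0.605 to 2.55), against 0.122% and 1.92% in the shorter class, and 0.284% and 1.89% over all merged regions. H3K27me3 was at both ends of no long domain and at 1 end of 18 (3.20%, 2.04 to 5.01). In the shorter class these shares were 0.0914% and 1.86%, and over all merged regions 0.0549% and 1.05%. For H3K27me3 at 1 end, long domains were 1.34 points above the shorter class (0.0662 to 3.19), and higher on 8 and lower on 7 of the 20 chromosomes.

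H3K27ac and H3K4me2 mostly chose the same end. Of the 1124 long-domain ends, 40.3% had both marks (37.5 to 43.2), 10.9% H3K27ac alone, 10.9% H3K4me2 alone and 37.9% neither. In domains of 5 to 10 kb, 24.8% of ends had both. Of 169 long domains with each mark at 1 end, 158 had them at the same end and 11 at opposite ends. Whole-domain patterns were both marks at both ends in 89 (15.8%), both at 1 end with neither at the other in 158 (28.1%), and neither mark at either end in 92 (16.4%). In the shorter class these were 8.16, 21.3 and 35.5%.

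In long domains, marking of an end went only weakly with marking of the opposite end. The opposite end had H3K27ac for 52.9% of the ends with it and for 49.4% of the ends without it. In domains of 5 to 10 kb these shares were 44.4% and 27.2%. For H3K4me2 they were 53.5% and 48.9% in long domains, and 44.9% and 31.8% in the shorter class.

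The 268 long domains with H3K4me2 at 1 end were then laid out by that end, and the other lists, which played no part in the choice, were read at both ends. H3K27ac was at the H3K4me2 end of 80.2% (75.04 to 84.6) and at the other end of 25.4% (20.5 to 30.9). Over the whole H3K27ac list, 48.8% of peaks overlapped H3K4me2, so this split is not independent of their overlap in general. The list labelled H3K9me3 was at the H3K4me2 end of 42.5% (36.8 to 48.5) and at the other end of 6.34% (3.998 to 9.92). Within a domain, 103 had that list at the H3K4me2 end alone and 6 at the other end alone. In 1323 domains of 5 to 10 kb with H3K4me2 at 1 end, H3K27ac was at 66.1% and 18.1% of these ends, and the list labelled H3K9me3 at 30.0% and 3.85%.

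H3K36me3 resumed sooner past the end without H3K4me2. Another region lay within 10 kb of 53.7% of H3K4me2 ends (47.8 to 59.6) and 64.9% of the other ends (59.0 to 70.4). The median distance to it was 8.30 kb at H3K4me2 ends and 4.10 kb at the other ends. From 1 to 4 kb outside, H3K36me3 covered 10.1% of the sequence at H3K4me2 ends and 23.7% at the other ends. The shorter class had the same order, with 60.5% and 72.2% of ends within 10 kb of another region. The intervals for long domains overlap slightly, and they do not use the pairing of ends within a domain. Over all long-domain ends, H3K4me2 was at 46.6% of those with another region within 10 kb and 58.6% of those without. The order of H3K4me2 ends and other ends is therefore not independent of that association.

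**Figure D4:**
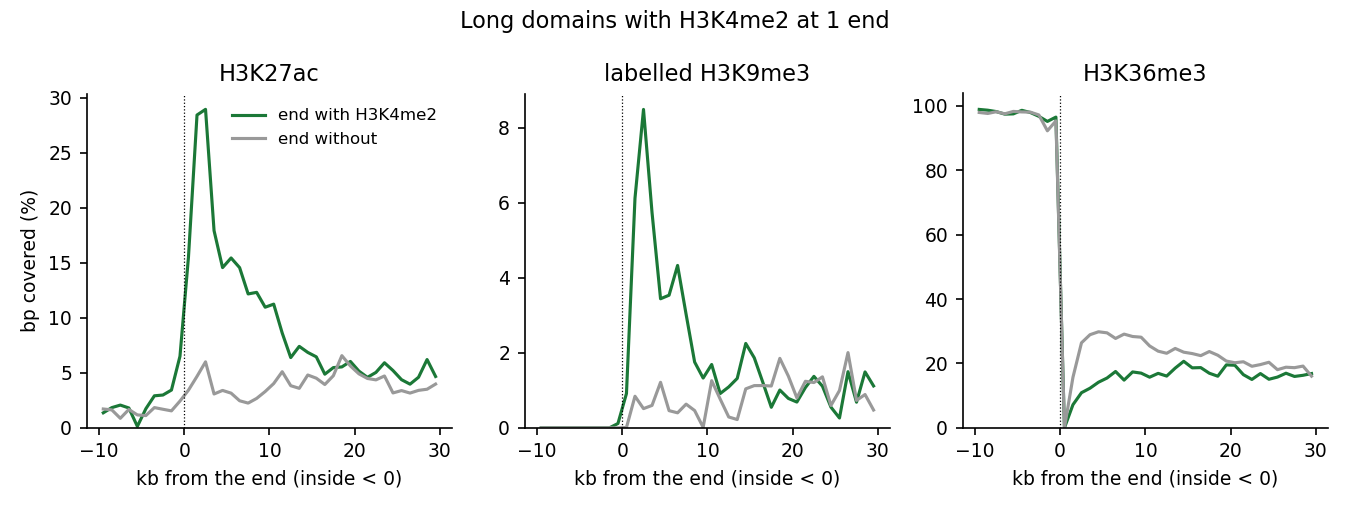
Share of sequence covered (y axes, %) by H3K27ac, the list labelled H3K9me3 and H3K36me3 in 1 kb steps from the end (x axis, kb, inside below 0) of the 268 long domains with H3K4me2 at 1 end. Green lines are ends with H3K4me2 and grey lines the opposite ends. H3K27ac reaches 29.0% from 2 to 3 kb outside the H3K4me2 end, and H3K36me3 is lower outside that end.

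Active marks were close to the edge and much scarcer just inside it. At marked ends of long domains the nearest H3K27ac peak was a median of 2028 bp outside (quartiles 664.5 and 5159 bp) and touched the edge at 11.1% of them. The nearest H3K4me2 peak was a median of 2126 bp away. In domains of 5 to 10 kb the medians were 2252.5 and 2641 bp. The widest H3K27ac peak in an end window had a median of 1460 bp at long domains and 1155.5 bp at the shorter ones, so the peaks themselves were also somewhat wider.

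By distance, H3K27ac covered 15.7% of the sequence from 2 to 3 kb outside long domains, its highest 1 kb step. It covered 13.9% from 1 to 4 kb, 7.54% from 4 to 10 kb and 4.41% from 20 to 30 kb outside. In the shorter class these zones were at 7.74, 4.72 and 4.15%, so the classes came together 20 to 30 kb away. From 1 to 10 kb inside long domains H3K27ac covered 1.74% of the sequence, beside 1.22% of the whole span. H3K4me2 covered 9.90% from 1 to 4 kb outside and 0.362% from 1 to 10 kb inside. The list labelled H3K9me3 covered 3.06% from 1 to 4 kb outside and none from 1 to 10 kb inside. The first kb outside holds no H3K36me3 by the way domains were joined.

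**Figure D5:**
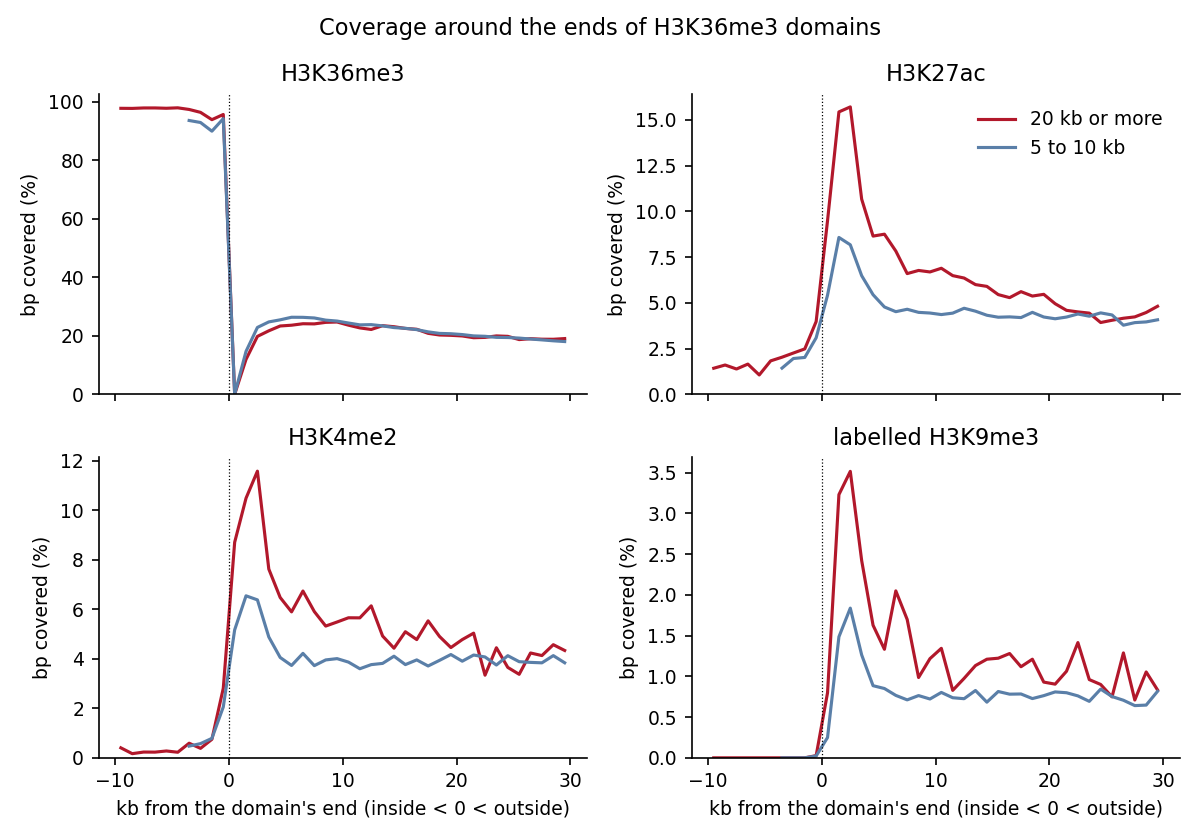
Share of sequence covered (y axes, %) by 4 lists in 1 kb steps from the end of an H3K36me3 domain (x axis, kb, inside below 0, dotted line at the end), for long domains in red and domains of 5 to 10 kb in blue. Inside steps stop at the middle of a domain. H3K27ac peaks at 15.7% outside long domains and 8.57% outside the shorter ones.

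Inside, pooled over whole domains, long domains held H3K27ac of any width, counted by midpoint, at about the density of shorter domains. They held less H3K4me2 and almost nothing else. Within 2.5 kb of an edge lay 16.7% of long-domain sequence and 71.8% of that of the shorter class. The pooled densities thus mix edge and interior in different proportions. A peak counted as inside when its midpoint was. H3K27ac numbered 481 peaks, 28.6 per Mb (26.1 to 31.3), in long domains and 28.1 per Mb (25.9 to 30.3) in domains of 5 to 10 kb, beside 10.7 per Mb over the whole span. Being longer, 43.1% of long domains (39.0 to 47.2) held at least 1, against 14.4% of the shorter class (13.3 to 15.7). The ratio of the H3K27ac densities, long over shorter, was 1.02 (0.906 to 1.15), and 10 of 13 alternatives stayed within that interval. It was 0.882 (0.791 to 0.984) when any peak sharing 1 bp counted and 1.10 (0.974 to 1.24) when only whole peaks did. Over the 13 alternatives it ran from 0.719 to 1.13. With the shorter class weighted to the chromosome mix of long domains it was 0.900 (0.799 to 1.01, a width taken from unweighted counts). H3K4me2 numbered 111 peaks, 6.61 per Mb (5.43 to 7.95), in long domains and 12.2 per Mb (10.8 to 13.7) in the shorter ones, beside 21.9 over the span. The intervals for H3K4me2 did not overlap.

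H3K4me2 inside long domains was densest next to the edges. It had 17.1 peaks per Mb (12.6 to 22.6) in the 2.5 kb next to an edge and 3.95 per Mb (2.48 to 5.99) from 10 kb inward. H3K27ac had 38.1 per Mb (31.2 to 46.0) next to the edge and 24.6 per Mb (20.7 to 29.1) from 10 kb inward, a flatter course. With 2.5 kb left out at each edge, long domains held 0.692 times the H3K4me2 density of the shorter class (0.468 to 1.02), an interval that holds 1, and with whole domains 0.542 times (0.435 to 0.675).

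Peaks of H3K27ac inside long domains were narrow and mostly without H3K4me2. Of the 481, 362 (75.3%) had the commonest width of 501 bp, against 69.6% (447 of 642) in domains of 5 to 10 kb and 41.9% of the whole list, so narrow peaks were common inside both classes. Only 6.24% overlapped H3K4me2 (4.40 to 8.76), against 12.3% in domains of 5 to 10 kb (9.99 to 15.1) and 52.0% of H3K27ac peaks outside all merged H3K36me3 regions. At a width of 501 bp the shares were 4.42% in long domains (2.74 to 7.06), 6.71% in the shorter class (4.74 to 9.42) and 34.4% outside (33.5 to 35.3). Counting H3K27ac peaks of more than the median width alone, long domains held 4.46 per Mb (3.51 to 5.59), 0.719 times the density of the shorter class (0.543 to 0.951). Few of the 481 midpoints, 5, lay in bridged gaps, so nearly all sat within called H3K36me3. Of the 111 H3K4me2 midpoints inside long domains, 11 lay in bridged gaps (9.91%, 5.62 to 16.9), which made up 2.40% of the sequence. In domains of 5 to 10 kb the H3K4me2 share was 7.89%, with bridged gaps at 7.55% of the sequence.

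H3K27ac inside went with H3K27ac at the ends. Domains with both ends marked held 44.6 peaks per Mb (38.7 to 51.0), those with 1 end marked 28.3 (24.7 to 32.1) and those with neither 10.2 (7.30 to 13.9). Counting only whole peaks at least 2.5 kb from an edge gave 39.7, 24.5 and 10.6 per Mb. In domains of 5 to 10 kb the midpoint densities were 93.4, 32.6 and 4.76 per Mb. A peak across an edge can count both as inside and as marking that end. In the shorter class 73.2% of H3K27ac midpoints lay within 2.5 kb of an edge, as did 71.8% of the sequence. No recount away from the edges was made there, so its contrast cannot be set against that of long domains. Local copy number or mappability that raises calls across a region was not measured, and its part was not tested.

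Laid out by the H3K4me2 end and cut into 5 equal parts, long domains with H3K4me2 at 1 end had 61 H3K27ac peaks in the part nearest that end. The other parts had 41, 43, 42 and 41. H3K4me2 peaks inside these domains fell 24, 11, 5, 7 and 11 along the same parts. The first part thus held 26.8% of the H3K27ac (21.4 to 32.9) and 41.4% of the H3K4me2 (29.6 to 54.2). In domains of 5 to 10 kb laid out the same way it held about as much, 25.6% (20.8 to 31.1) and 44.8% (36.1 to 53.9). The H3K4me2 shares are tied to the layout, since H3K4me2 chose the end.

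The most H3K27ac peaks inside a long domain, 9, were on chromosome 11 (100964072 to 100998311, 34.2 kb), which also held the most H3K4me2 peaks, 4. Its H3K27ac covered 9263 bp, and H3K27ac was at both ends while H3K4me2 was at the right end only. A domain on chromosome 15 (63615209 to 63641224, 26.0 kb) held 8 H3K27ac peaks over 6271 bp and had both marks at the right end only. The domain on chromosome 14 described above held 7. For H3K4me2 the next were the chromosome 17 domain of 67.9 kb and one on chromosome 11 (118233623 to 118267956, 34.3 kb), with 3 each. That 34.3 kb domain held no H3K27ac inside, although H3K27ac was at both its ends.

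No H3K27me3 peak touched any of the 562 long domains, and none had its midpoint in the 3283 domains of 5 to 10 kb either. The span as a whole had 21.9 H3K27me3 peaks per Mb. Outside long domains H3K27me3 came back slowly, covering 0.0296% from 1 to 4 kb, 0.287% from 4 to 10 kb and 0.724% from 20 to 30 kb, beside 1.65% of the span. In the shorter class the cover from 20 to 30 kb was 0.499%.

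The list labelled H3K9me3 had 1 peak midpoint in long domains, or 0.0595 per Mb (0.00151 to 0.332), against 0.131 per Mb (0.0270 to 0.383) in domains of 5 to 10 kb and 6.94 over the span. It touched 2 long domains with 1 peak each. One was the 74.8 kb domain on chromosome 11, where the peak lay wholly inside, and the other was on chromosome 15 (44120141 to 44156692, 36.6 kb), where it entered by 308 bp.

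The list labelled H2A.Z had 8 peaks in 4 long domains, or 0.476 per Mb (0.206 to 0.938), against 2.93 per Mb (2.27 to 3.72) in domains of 5 to 10 kb and 17.7 over the span. A pair of these domains lay on chromosome 19. One (58741450 to 58779176, 37.7 kb) held 4 of the peaks, over 5446 bp, and the other (58695892 to 58720623, 24.7 kb) held 1. The rest were on chromosome 15 (90121390 to 90177563, 56.2 kb), with 2 peaks, and chromosome 5 (154263684 to 154312071, 48.4 kb), with 1.

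The 92 long domains with neither active mark within 10 kb of either end had a median length of 25.5 kb, and the longest spanned 65.5 kb. Of these, 91.3% had another H3K36me3 region within 10 kb of an end, against 80.6% of the other long domains. H3K27ac lay inside 17 of the 92, beside 242 of all 562 long domains (43.1%). H3K27ac or H3K4me2 lay inside 19 of the 92. Over all 562 long domains the marks were counted singly, 43.1% for H3K27ac and 16.5% for H3K4me2. A peak across an edge marks that end, so the 92 hold no such peak by the way they were picked.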

How the data were processed

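The data were 6 deposited peak lists from T-47D ChIP-seq, 1 per antibody, and 1 library each. Each file gives chromosome, start, end and name of a peak, with no other value. The authors' tools were HOMER 4.2 and Bowtie2 2.1.0, and the builds hg19 and GRCh37, per the submitters' processing notes, which give no role for either tool. For calling settings, use of the input and depth, the sources used here give nothing. Many peaks have a width of 501 bp, which limits resolution.

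H3K36me3 peaks were joined within 1 kb. Other lists were counted in 10 kb outside each end, inside by midpoint, and by covered sequence in 1 kb steps. Coordinates are hg19, counted from 1. The classes and settings were chosen with earlier results of these data known. Named regions were the 10 longest, the 3 on either side of the threshold, the 3 with most H3K27ac or H3K4me2 inside, and up to 5 with each other list, plus the 2 densest and 2 sparsest chromosomes. The closest pair of long domains and the next closest, chromosomes 19 and 21, and the 92 unmarked domains were singled out after their values were seen. Alternatives were other joining distances, length thresholds, windows, peak widths and overlap rules, and subsets of domains or chromosomes. Counting was tested on simulated intervals. Genes and luminal markers were not analysed here. Python 3.11.15, numpy 2.4.6, pandas 2.3.3 and scipy 1.17.1 were used.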

Additional observations from a re-analysis of the deposited data

Results flagged for a closer look

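The comparisons use chromosomes 1 to 22 and X only. Outside these, the H3K36me3 list had 147 peaks, on chromosome Y and unplaced or alternate contigs. Joined in the same way they gave 130 regions, of which 8 were 5 kb or longer and none reached 20 kb. The longest spanned 14746 bp. This was singled out because these peaks lie in data outside the comparisons.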

How the results depend on the processing

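Each result was recomputed under up to 17 alternatives, 213 values in all, of which 139 stayed close to the reported value (within its interval or, for counts, near the same size), 73 moved further and 1 changed sign. Joining within 3 kb gave 1299 long domains, of which 9.16% were on chromosomes 17 and 22, 48.4% of ends had another region within 10 kb, 19.6% had H3K27ac and 22.8% H3K4me2 at both ends, the leads over 5 to 10 kb domains were 6.35 and 6.57 points, and H3K27ac inside was 24.7 per Mb. Without joining, 66.2% of ends had a near region and H3K27ac inside was 32.4 per Mb. At 15 kb or more, H3K27ac was at both ends of 23.2%, a lead of 8.62 points, and at 30 kb or more it was 31.8 per Mb inside. With 5 kb windows the both-end shares were 15.3% (H3K27ac, lead 6.26 points) and 14.9% (H3K4me2, lead 6.60), and with 20 kb windows 41.5% and 48.8%, the H3K4me2 lead being 18.5. Windows stopped at the next H3K36me3 peak gave 15.7% (lead 6.98) and 18.1%. Peaks wider than their list's median gave 14.6% (lead 7.55) and 16.2%, and 4.46 H3K27ac peaks per Mb inside. Counting any peak that shares 1 bp gave 31.5 H3K27ac peaks per Mb inside and a ratio to the shorter class of 0.882. Counting only whole peaks gave a ratio of 1.10. With the shorter class weighted to the chromosome mix of long domains, the H3K27ac ratio by midpoint was 0.900. Leaving out 2.5 kb at each edge gave an H3K4me2 density ratio of 0.692. The following were added after seeing the data. The 229 domains of a single peak had 33.2% (H3K27ac) and 33.6% (H3K4me2) at both ends, 55.5% of ends with a near region and 36.9 H3K27ac peaks per Mb inside. With no other region within 10 kb, the leads were 2.75 points (H3K27ac) and -2.30 points (H3K4me2), the differences at neither end were -10.6 and -1.88 points, and the gap in H3K27ac between H3K4me2 ends and the others was 74.5 points. Set against domains of 10 to 20 kb, the H3K27ac lead was 8.70 points and the H3K4me2 density ratio 0.677. Apart from the -2.30 points, no direction between length classes that was varied turned for either mark at the ends. No H3K27me3 peak was inside long domains under any of 11 alternatives. No paired analysis was possible because each mark has 1 library. The cause of each move was not tested. Depth is unknown, and the authors' threshold limits what a missing peak shows.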
